A study of Homo sapiens with 12 samples.

Results

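The guidance genes described here encode ephrins and their Eph receptors, semaphorins with plexins and neuropilins, Slits with Robo receptors, netrins with UNC5 receptors, and the SLITRK membrane proteins. Members were taken by gene symbol, as every gene of these families in the count table, which gave 74 of 58381 genes. The choice was made with earlier results of these data known, so the shares of calls below may not be independent of the data. They comprised 33 receptors, 35 ligands and 6 SLITRK genes. Their levels were compared between CD44 KO and CD44 WT cells of Hs578T and MDA-MB-231, a pair of triple-negative breast cancer cell lines.

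Guidance proteins were named for steering growing axons, and the same proteins control cell shape, adhesion and migration in many tissues. Ephrins are membrane-bound ligands that signal in both directions when they meet Eph receptor tyrosine kinases on a neighbouring cell. Most semaphorins act through plexins, with neuropilins as co-receptors for secreted class 3 semaphorins, while Slits bind Robo receptors and netrins bind DCC, neogenin and the UNC5 family. SLITRK proteins carry leucine-rich repeats like those of Slits, and are known as synaptic adhesion molecules that bind LAR-type receptor phosphatases rather than Robo receptors.

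All cells, in both groups of both lines, carried a lentivirus for doxycycline-inducible Cas9. CD44 KO cells had received guide RNAs against exons 1 and 5 of CD44 and were sorted as live CD29-positive, CD44-negative cells. CD44 WT cells had received transfection reagent without guides and were sorted as positive for CD29 and CD44. The KO cells are therefore a sorted population and not a single clone. All cells were kept in 1% serum for 24 h before RNA was extracted. Each of the 4 groups held 3 libraries, for which separate cultures were not stated, so p-values measure only the spread between these libraries, which may be technical. For 1 MDA-MB-231 CD44 WT library the labels did not settle the replicate number, and it is called the unnumbered library. Total counts ranged from 10257586 to 19725543 per library.

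CD44, the targeted gene, fell in the direction of the labels in both lines. CPM, the level used throughout, is the count relative to the library's total after TMM scaling, in the usual unit of that name. In Hs578T CD44 averaged 507 ± 17.6 CPM in CD44 WT and 27.3 ± 2.06 CPM in CD44 KO (mean ± SD, n = 3), and the MDA-MB-231 means were 362 ± 1.70 and 34.2 ± 5.40 CPM. Of the mesenchymal markers, VIM, FN1 and ZEB1 were counted in both lines, while SPARC had 18 counts over the 3 MDA-MB-231 libraries of CD44 WT and 34 over those of CD44 KO. PGR, a hormone receptor absent from triple-negative cells, had 0 counts in all 4 groups, while ERBB2 was counted in both lines. ESR1, the other hormone receptor listed, was counted in both Hs578T groups and in MDA-MB-231 CD44 WT, with 0 counts in MDA-MB-231 CD44 KO. ESR1 and ERBB2 were tested and not called in either line. VIM rose in CD44 KO of both lines, ITGB1, which encodes the sorting marker CD29, was not called in either, and none of the 4 epithelial markers tested was called. The 5 epithelial markers together, mainly keratins, reached between 186 and 430 RPKM (CPM per kilobase of exon) in any library. The 4 leukocyte markers together reached between 0.367 and 0.754 RPKM in any library, the 4 endothelial markers between 0.884 and 2.31 RPKM, and the 4 neuronal markers between 1.76 and 6.76 RPKM. Among these markers KDR and SYT1 rose in CD44 KO of both lines and PTPRC rose in Hs578T. PTPRC exceeded 1 CPM only in CD44 KO libraries of Hs578T, so the filter on low counts given below favours a rise. CD3E had 0 counts in MDA-MB-231 CD44 KO and SNAP25 had 0 counts in both MDA-MB-231 groups. The part of these markers in the results below was not tested.

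Of the 74 guidance genes, 57 passed the filter on low counts, over 1 CPM in no fewer than 2 libraries, and were tested. For this filter CPM was taken before TMM scaling. SLIT3 and SEMA5A passed it only through the CD44 WT libraries of 1 line, which favours a fall in that line. Tested were 25 of 33 receptors, 28 of 35 ligands and 4 of 6 SLITRK genes. Not tested were the Eph receptors EPHA1, EPHA3, EPHA6, EPHA8, EPHA10 and EPHB1, the ligands EFNA2, SEMA4A, SEMA5B, SEMA6D, SLIT1, NTN3 and NTN5, the netrin receptors UNC5A and UNC5C, and SLITRK3 and SLITRK6. None of these 17 genes had more than 13 counts in any library, and EPHA8 and UNC5C had 0 in all 12.

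A gene was called when edgeR's quasi-likelihood test gave a p of at most 0.01 after Benjamini-Hochberg adjustment over all 15836 genes tested. The adjusted p-values below are from that test unless another setting or a left-out library is named. In Hs578T, 14 of 57 guidance genes (24.6%) were called, against 7.51% of all genes tested. Of these, 9 were lower in CD44 KO (3.86% of all genes were called lower) and 5 were higher (3.64% of all genes). In MDA-MB-231, 9 of 57 (15.8%) were called, against 4.62% of all genes, with 4 lower (2.65% of all genes) and 5 higher (1.97% of all genes). The median size of the log2 fold change was 0.30 for the guidance genes and 0.20 for all genes in Hs578T, and 0.36 and 0.19 in MDA-MB-231. The signed medians over all 57 guidance genes were 0 and 0.06. In Hs578T the libraries of CD44 KO and CD44 WT did not overlap for 13 guidance genes that were lower and 8 that were higher, against 18.6% and 18.7% of all genes tested, and in MDA-MB-231 for 9 lower and 13 higher, against 13.7% and 11.8%. RNA from bulk cells cannot tell fewer expressing cells from less RNA per cell.

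By role, 5 of 25 receptors and 8 of 28 ligands were called in Hs578T (7.51% of all genes), with 2 receptors and 6 ligands lower (3.86% of all genes) and 3 receptors and 2 ligands higher (3.64%). In MDA-MB-231, 2 of 25 receptors and 6 of 28 ligands were called (4.62% of all genes). Both receptors were higher (1.97% of all genes), and 2 of 25 (8%) lies near the share over all genes. The plot of fold changes shows every comparison of a tested member in which both groups had counts.

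**Figure D1:**
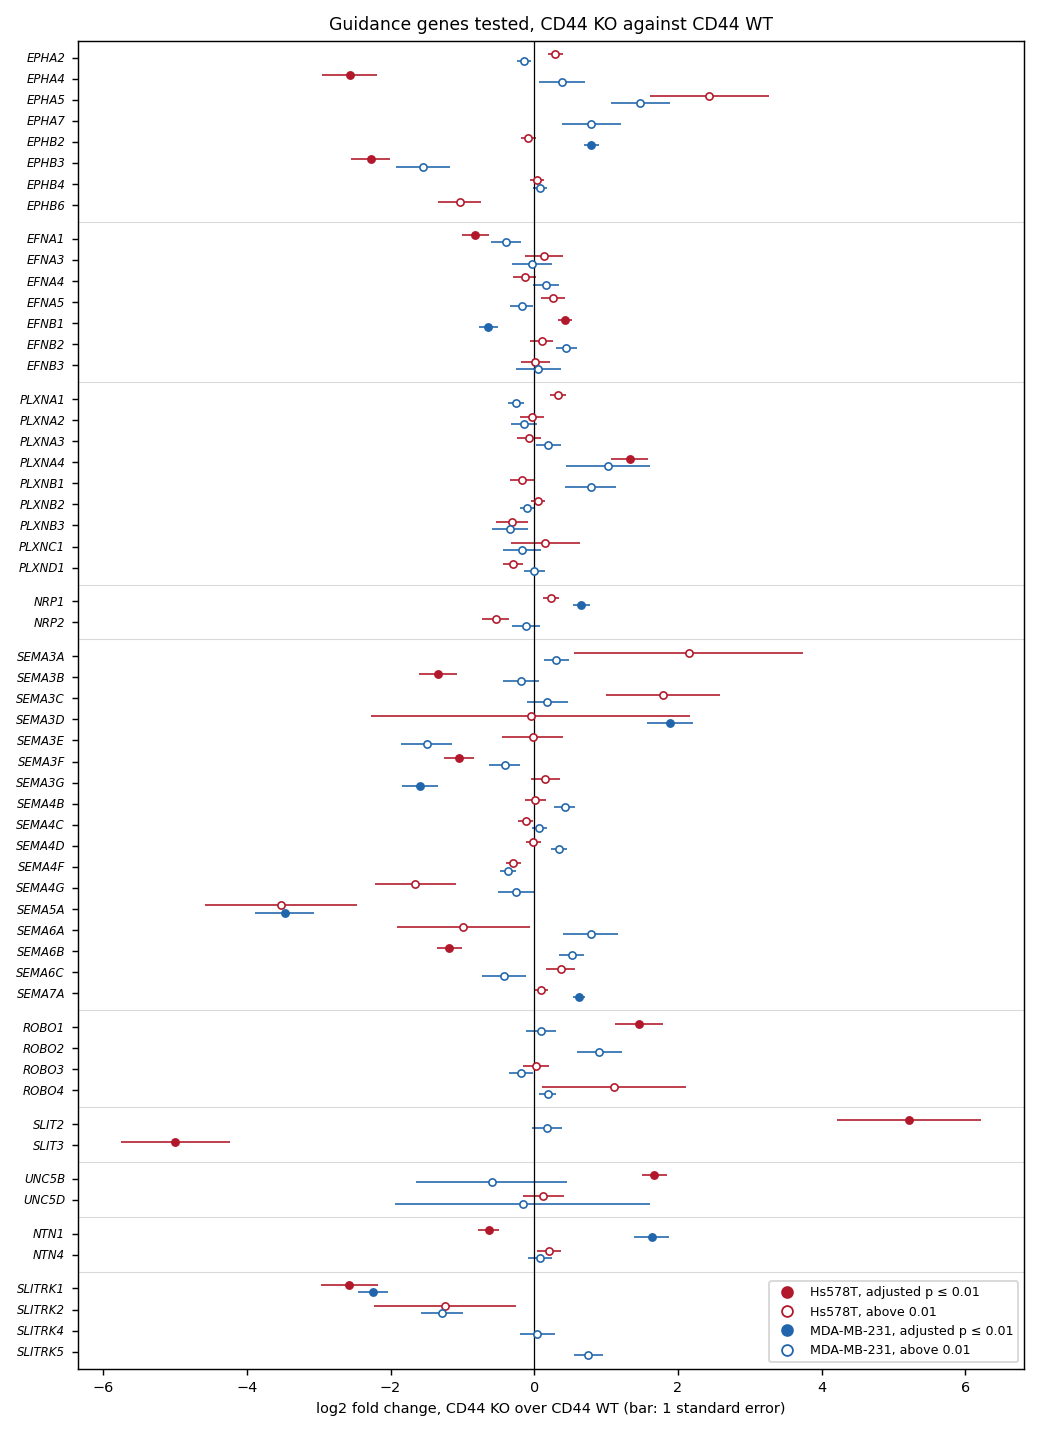
Fitted log2 fold change, CD44 KO relative to CD44 WT (x axis, bars 1 standard error) for the guidance genes tested (y axis, grouped by family), with Hs578T in red, MDA-MB-231 in blue and called genes filled. SLITRK1 lies left of 0 in both lines, NTN1 and EFNB1 have filled points on opposite sides of 0, and 4 Hs578T and 2 MDA-MB-231 comparisons with 0 counts in a group are not drawn.

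SLITRK1 was the only one of the 57 genes called in the same direction in both lines. SLITRK1, EPHB3 and SEMA5A each had fitted log2 fold changes under -1.5 in both lines, whereas EFNB1 rose in Hs578T and fell in MDA-MB-231. The 250 bases before the start site of these 4 genes (RefSeq, GRCh38.p14, each written on the strand of its gene) are printed so that their base composition and motifs can be compared. EPHB3 missed the threshold in MDA-MB-231 and SEMA5A in Hs578T, so their changes passed the test in 1 line each. SLITRK1 is on the minus strand at chr13:83882475-83882724, the first of 2 listed starts. EPHB3 is on the plus strand at chr3:184561535-184561784, SEMA5A on the minus strand at chr5:9546076-9546325 and EFNB1 on the plus strand at chrX:68828771-68829020. Capitals mark matches on either strand to TATAAA (the TATA box), CCAAT (the CAAT box), GGGCGG (the GC box), CACGTG (an E-box), TGANTCA (an AP-1 motif) or CTTTGAT (a TCF motif), overlapping matches included.
SLITRK1: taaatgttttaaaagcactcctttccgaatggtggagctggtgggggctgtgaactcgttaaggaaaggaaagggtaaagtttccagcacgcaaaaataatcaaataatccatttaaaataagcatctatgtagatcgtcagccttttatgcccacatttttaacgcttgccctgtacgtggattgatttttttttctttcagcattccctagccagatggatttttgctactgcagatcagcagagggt
EPHB3: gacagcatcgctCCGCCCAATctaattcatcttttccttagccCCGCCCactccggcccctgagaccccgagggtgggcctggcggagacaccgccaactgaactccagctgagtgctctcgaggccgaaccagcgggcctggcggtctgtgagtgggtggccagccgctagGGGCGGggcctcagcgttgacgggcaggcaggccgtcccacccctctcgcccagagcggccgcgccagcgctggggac
SEMA5A: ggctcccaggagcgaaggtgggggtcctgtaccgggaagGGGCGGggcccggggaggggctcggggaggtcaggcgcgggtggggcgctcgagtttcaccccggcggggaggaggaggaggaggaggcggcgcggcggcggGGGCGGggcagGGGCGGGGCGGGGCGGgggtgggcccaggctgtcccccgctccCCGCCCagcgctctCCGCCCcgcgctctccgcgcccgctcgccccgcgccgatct
EFNB1: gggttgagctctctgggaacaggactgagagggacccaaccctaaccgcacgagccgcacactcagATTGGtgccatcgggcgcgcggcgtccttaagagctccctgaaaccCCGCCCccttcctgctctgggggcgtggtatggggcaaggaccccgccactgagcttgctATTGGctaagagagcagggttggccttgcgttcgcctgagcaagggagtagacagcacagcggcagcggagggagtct

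The SLITRK1 window held no match to any of these motifs and had a GC content of 40.4%. The other 3 windows held GGGCGG, a GC box, with 3 matches for EPHB3, 7 for SEMA5A, some of them overlapping, and 1 for EFNB1, and their GC contents were 70.0%, 82.0% and 63.6%. CCAAT matched 2 times for EFNB1 and 1 time for EPHB3, where it overlapped a GC box. Among 35116 promoters of this length, 42.6% held GGGCGG, 32.0% CCAAT, 10.7% TATAAA, 6.34% CACGTG, 6.57% TGANTCA and 2.26% CTTTGAT. For the 102 listed promoters of the 64 guidance genes that matched the RefSeq table by symbol, the share with GGGCGG was 69.6% and the median GC content was 64.4%, against 58.0% for all promoters. A match describes letters and not a bound site.

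Among the Eph receptors, EPHA4 and EPHB3 fell in Hs578T and EPHB2 rose in MDA-MB-231, with 8 of 14 family members tested. EPHA4 binds ephrins of both classes, and EPHB2 and EPHB3 bind B-class ephrins. EPHA4 (chromosome 2) had 9.78, 7.90 and 3.05 CPM in the Hs578T CD44 WT libraries 1 to 3 and 1.12, 1.11 and 1.28 CPM in the CD44 KO libraries. The CD44 KO libraries lay close together and below all CD44 WT libraries, of which replicate 3 was the lowest. The log2 fold change was -2.57 (SE, the standard error, 0.384, adjusted p = 0.000313). In MDA-MB-231 EPHA4 had 3.60, 4.95 and 5.79 CPM in CD44 WT and 7.96, 5.72 and 5.04 CPM in CD44 KO. These groups overlapped, and the log2 fold change was 0.38 (SE 0.326, adjusted p = 0.524).

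EPHB3 had 38.4, 31.7 and 16 CPM in Hs578T CD44 WT and 4.57, 5.55 and 7.76 CPM in CD44 KO. The groups did not overlap, with CD44 WT replicate 3 again the closest to CD44 KO, and the log2 fold change was -2.28 (SE 0.271, adjusted p = 4.57e-05). In MDA-MB-231 EPHB3 had 4.11, 3.65 and 4.37 CPM in CD44 WT and 1.10, 1.69 and 1.19 CPM in CD44 KO. These groups did not overlap either, and the log2 fold change of -1.55 (SE 0.378, adjusted p = 0.0159) missed the threshold. It passed in 4 of 11 other settings, with adjusted p from 3.29e-07 without the filter on low counts to 0.0352 with the newer quasi-likelihood fit. Of the 12 fits that left out a library it passed in 2, with adjusted p up to 0.0617. The difference between lines for EPHB3 was -0.73 (SE 0.475, adjusted p = 0.382).

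EPHB2 had 48.5, 47.1 and 46.1 CPM in MDA-MB-231 CD44 WT and 81.2, 80.8 and 83.4 CPM in CD44 KO, without overlap. Its log2 fold change was 0.79 (SE 0.106, adjusted p = 0.000224). In Hs578T it had 90.0 to 108 CPM in CD44 WT and 78.3 to 102 CPM in CD44 KO, which overlapped, with a log2 fold change of -0.09 (adjusted p = 0.647). EPHA2 and EPHB4, the Eph receptors with the highest level per length, were not called in either line. EPHA2 reached 16.6 ± 1.87 RPKM in Hs578T CD44 WT and 149 ± 5.65 RPKM in MDA-MB-231 CD44 WT, where it made up 92.1% of the summed Eph receptor RPKM. In CD44 KO its level was 20.4 ± 2.66 RPKM in Hs578T (adjusted p = 0.0749) and 135 ± 4.48 RPKM in MDA-MB-231 (adjusted p = 0.437).

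The ephrins gave smaller changes. EFNA1, an A-class ephrin anchored by a lipid, had 18.1, 17.3 and 11.3 CPM in Hs578T CD44 WT and 7.78, 9.56 and 9.04 CPM in CD44 KO. The groups did not overlap and the log2 fold change was -0.82 (SE 0.187, adjusted p = 0.00755). The call was kept in 4 of the 12 fits that left out a library, with adjusted p up to 0.0490 without CD44 WT replicate 1. In MDA-MB-231 the CD44 WT libraries ranged from 6.15 to 8.57 CPM and the CD44 KO libraries from 4.83 to 6.36 CPM, with overlap and a log2 fold change of -0.39 (adjusted p = 0.268).

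EFNB1, a transmembrane ephrin, moved in opposite directions. It had 65.6, 67.9 and 61.8 CPM in Hs578T CD44 WT and 84.6, 92.2 and 84.5 CPM in CD44 KO, a log2 fold change of 0.42 (SE 0.0962, adjusted p = 0.00789). In MDA-MB-231 it had 8.14, 7.06 and 7.13 CPM in CD44 WT and 5.34, 4.08 and 5.14 CPM in CD44 KO, a log2 fold change of -0.64 (SE 0.136, adjusted p = 0.00704). The groups did not overlap in either line, and the difference between lines was 1.06 (SE 0.167, adjusted p = 0.000842). Both single-line calls were lost when any of several libraries was left out, as detailed after the results, while the difference between lines kept its call without each of the 12 libraries. EFNA4 and EFNB2, next to EFNB1 in RPKM averaged over the 4 groups, were not called in either line. EFNA3 and EFNA4 share 44.7% and 14.96% of their exonic bases with the readthrough gene EFNA4-EFNA3, and fragments assigned to several genes were not counted, so their levels are uncertain.

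Of 17 semaphorins tested, 3 were called in Hs578T (17.6%, against 7.51% of all genes) and 4 in MDA-MB-231 (23.5%, against 4.62% of all genes). Class 3 semaphorins are secreted, and of these SEMA3B and SEMA3F were called in Hs578T and SEMA3D and SEMA3G in MDA-MB-231. SEMA3B had 30.9, 27.2 and 14.8 CPM in Hs578T CD44 WT and 10.1, 9.25 and 9.64 CPM in CD44 KO, a log2 fold change of -1.34 (SE 0.268, adjusted p = 0.00327). SEMA3F had 23.2, 30.5 and 23.8 CPM in CD44 WT and 9.23, 13.9 and 14.2 CPM in CD44 KO, a log2 fold change of -1.05 (SE 0.211, adjusted p = 0.00344). Both genes lie within 0.123 Mb on chromosome 3, and neither overlapped between the groups. In MDA-MB-231 both overlapped between the groups and were not called (adjusted p = 0.706 for SEMA3B and 0.279 for SEMA3F).

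SEMA3G, also on chromosome 3, had 4.03, 4.79 and 3.21 CPM in MDA-MB-231 CD44 WT and 1.19, 1.01 and 1.98 CPM in CD44 KO. Every CD44 KO library was below every CD44 WT library, with a log2 fold change of -1.59 (SE 0.253, adjusted p = 0.000843). In Hs578T SEMA3G stayed between 6.52 and 7.93 CPM in all 6 libraries, with a log2 fold change of 0.15 (SE 0.196, adjusted p = 0.675). SEMA3D on chromosome 7 had 0.943, 2.68 and 2.41 CPM in MDA-MB-231 CD44 WT and 8.30, 7.73 and 6.32 CPM in CD44 KO, a log2 fold change of 1.89 (SE 0.317, adjusted p = 0.00130). CD44 WT replicate 1 was the lowest of these libraries. SEMA3D had 1 count in each Hs578T group, which is under the floor of 3 counts. SEMA3E, which lies in the same cluster of 4 SEMA3 genes on chromosome 7 within 4.44 Mb, had a log2 fold change of opposite sign in MDA-MB-231, -1.50 (SE 0.351, adjusted p = 0.0122), just above the threshold. The other genes of that cluster, SEMA3A and SEMA3C, were not called in either line.

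Among the membrane-bound semaphorins, SEMA6B fell in Hs578T, SEMA5A fell in MDA-MB-231 and SEMA7A rose in MDA-MB-231. SEMA6B, a transmembrane semaphorin, had 98.4, 102 and 55.8 CPM in Hs578T CD44 WT and 34.2, 37.7 and 41.1 CPM in CD44 KO, a log2 fold change of -1.18 (SE 0.174, adjusted p = 0.000276). In MDA-MB-231 it had 38.2, 34.1 and 30.6 CPM in CD44 WT and 46.7, 50.0015 and 50.9 CPM in CD44 KO, a log2 fold change of 0.52 (SE 0.177, adjusted p = 0.0827). The groups overlapped in neither line, and the difference between lines was called (-1.70, SE 0.248, adjusted p = 0.000459).

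SEMA5A, a transmembrane semaphorin with thrombospondin repeats, had 3.43, 4.46 and 4.81 CPM in MDA-MB-231 CD44 WT and 0.254, 0.318 and 0.593 CPM in CD44 KO. The groups were far apart, with a log2 fold change of -3.48 (SE 0.416, adjusted p = 7.86e-05), an 11.1-fold lower fitted level. In Hs578T SEMA5A was counted 15 times in all 3 CD44 WT libraries together and 1 time in those of CD44 KO. This is a 15.8-fold lower count per scaled total with a counting interval of 2.43 to 665 (95%, exact), and the test missed the threshold (adjusted p = 0.0199).

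SEMA7A, anchored by a lipid and known to bind integrins and plexin C1, had 97.6, 95.0 and 99.6 CPM in MDA-MB-231 CD44 WT and 160.2, 147 and 144 CPM in CD44 KO. The groups did not overlap, and the log2 fold change was 0.63 (SE 0.0856, adjusted p = 0.000261). In Hs578T it stayed between 12.4 and 15.2 CPM in all 6 libraries. Over all 20 semaphorin genes the summed level was 60.1 to 77.3 RPKM per library in Hs578T CD44 WT and 50.1 to 52.9 RPKM in CD44 KO. In MDA-MB-231 it was 71.7 to 77.3 RPKM in CD44 WT and 90.2 to 96.1 RPKM in CD44 KO. In both lines these sums did not overlap between the groups, for which an exact permutation test of 3 against 3 libraries cannot give a p under 0.1. SEMA6B had the largest share of the sum in Hs578T CD44 WT, 27.2%, and 16.6% in CD44 KO. In MDA-MB-231 the largest share was that of SEMA7A, with 34.4% in CD44 WT and 42.2% in CD44 KO.

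All 9 plexin genes were tested, and PLXNA4 in Hs578T was the only one called. PLXNA4, a receptor that works with neuropilins, had 2.29, 2.39 and 3.47 CPM in CD44 WT and 7.54, 7.65 and 5.12 CPM in CD44 KO. No library overlapped, and the log2 fold change was 1.33 (SE 0.257, adjusted p = 0.00251). In MDA-MB-231 PLXNA4 stayed under 1 CPM in every library. PLXNB2 and PLXNA1, the plexins with the highest RPKM, were not called in either line (adjusted p = 0.819 and 0.0545 in Hs578T, 0.585 and 0.179 in MDA-MB-231). PLXNB3 shares 20.4% of its exonic bases with SRPK3.

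NRP1, a co-receptor of class 3 semaphorins and of VEGF, rose in MDA-MB-231. It had 135, 187 and 176 CPM in CD44 WT replicates 1 and 3 and the unnumbered library, and 234, 268 and 282 CPM in CD44 KO. Replicate 1 was the lowest CD44 WT library, no library overlapped, and the log2 fold change was 0.65 (SE 0.115, adjusted p = 0.00185). In Hs578T NRP1 had 162 to 189.9 CPM in CD44 WT and 197 to 218 CPM in CD44 KO, also without overlap, with a log2 fold change of 0.23 (SE 0.114, adjusted p = 0.205). The difference between lines was -0.42 (adjusted p = 0.115). NRP2 was not called in either line.

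**Figure D2:**
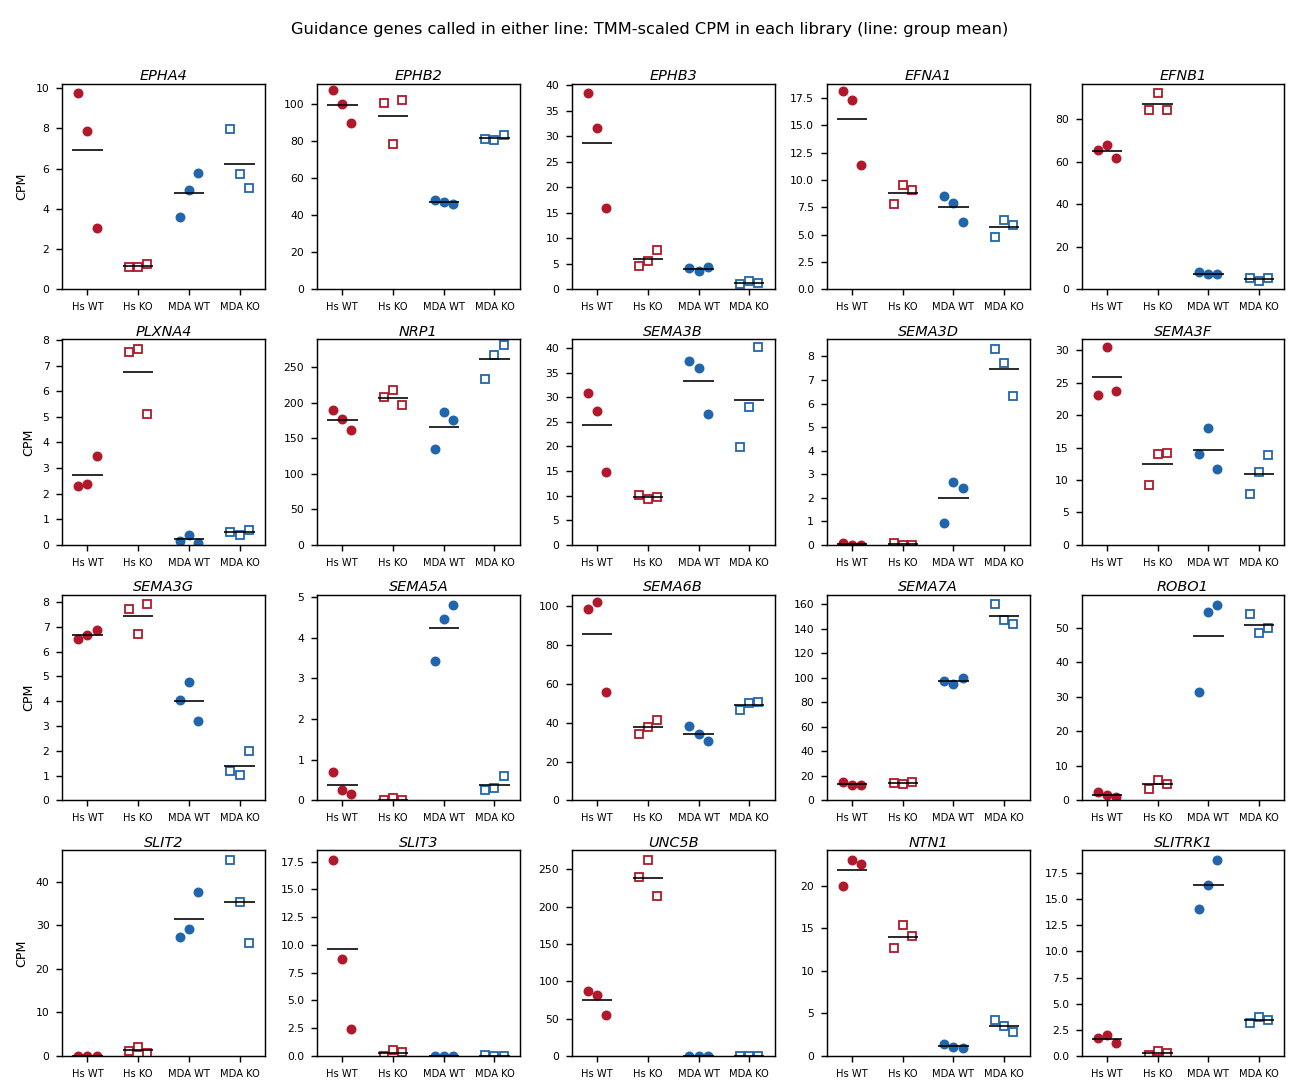
TMM-scaled CPM (y axis, from 0, a scale of its own in each panel) of the 20 guidance genes called in either line, in every library of Hs578T (red) and MDA-MB-231 (blue), CD44 WT as filled circles and CD44 KO as open squares, with the group mean as a line. SLIT3 spreads from 2.45 to 17.6 CPM in Hs578T CD44 WT, while UNC5B in CD44 KO lies between 215 and 262 CPM, above all CD44 WT libraries.

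In Hs578T SLIT3 fell and SLIT2 rose, both at low levels. SLIT3 had 17.6, 8.72 and 2.45 CPM in CD44 WT and 0, 0.493 and 0.341 CPM in CD44 KO. CD44 WT spanned a wide range and still lay above CD44 KO, with a log2 fold change of -4.996 (SE 0.759, adjusted p = 0.000583). It was -4.21 without CD44 WT replicate 1 and -5.79 without CD44 KO replicate 2, and called in both. SLIT2 was counted 1 time in the CD44 WT libraries together and 54 times in those of CD44 KO, which stood at 1.20, 1.97 and 0.597 CPM. The ratio of CD44 KO to CD44 WT was 51.3 with an exact 95% counting interval of 8.83 to 2063, and the adjusted p was 0.00136 (0.0128 without CD44 WT replicate 1). In MDA-MB-231 SLIT2 had 27.4, 29.2 and 37.6 CPM in CD44 WT and 45.0, 35.5 and 25.9 CPM in CD44 KO. These groups overlapped, and the log2 fold change was 0.18 (SE 0.213, adjusted p = 0.673). SLIT3 had 0 counts in MDA-MB-231 CD44 WT.

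Of the 4 Robo receptors, ROBO1 in Hs578T was called. It had 2.43, 1.65 and 1.02 CPM in CD44 WT and 3.29, 5.98 and 4.86 CPM in CD44 KO, a log2 fold change of 1.45 (SE 0.339, adjusted p = 0.00865) without overlap. This call is close to the threshold, and it was kept in 3 of the 12 fits that left out a library. In MDA-MB-231 ROBO1 ranged from 31.5 to 56.7 CPM in CD44 WT, with replicate 1 the lowest, and from 48.5 to 54.0 CPM in CD44 KO, with overlap (adjusted p = 0.85). ROBO3 and ROBO4, which lie side by side on chromosome 11 on opposite strands, were not called in either line.

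UNC5B, a netrin receptor also known as a dependence receptor, had the smallest adjusted p of the guidance genes in Hs578T. It had 87.3, 81.9 and 55.4 CPM in CD44 WT and 239.6, 262 and 215 CPM in CD44 KO. The lowest CD44 KO library was far above the highest CD44 WT library, with a log2 fold change of 1.67 (SE 0.168, adjusted p = 8.88e-06), a 3.19-fold higher fitted level. UNC5B made up 97.7% of the summed UNC5 RPKM in CD44 WT and 99.2% in CD44 KO. In MDA-MB-231 no library reached 1 CPM, and the values of 0 to 0.406 CPM in CD44 WT and 0 to 0.254 CPM in CD44 KO overlapped. At this level the difference between lines was not called (2.27, SE 1.08, adjusted p = 0.203).

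NTN1, the netrin with the best known guidance role, changed in opposite directions. In Hs578T it had 19.97, 23.0 and 22.5 CPM in CD44 WT and 12.7, 15.4 and 14.1 CPM in CD44 KO, a log2 fold change of -0.63 (SE 0.149, adjusted p = 0.00914). This call is close to the threshold, was kept in 4 of the 12 fits that left out a library (adjusted p up to 0.0525 without CD44 KO replicate 1) and was lost with the stricter filter on counts (0.0101). In MDA-MB-231 it had 1.46, 1.05 and 0.891 CPM in CD44 WT and 4.24, 3.55 and 2.77 CPM in CD44 KO, a log2 fold change of 1.63 (SE 0.238, adjusted p = 0.000423). The groups overlapped in neither line. The difference between lines was -2.27 (SE 0.281, adjusted p = 0.000103), the smallest adjusted p for that difference among the guidance genes. NTN4, a netrin related to laminins and the one with the highest RPKM in both lines, was not called (adjusted p = 0.480 in Hs578T and 0.858 in MDA-MB-231).

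SLITRK1 on chromosome 13 had 1.73, 1.97 and 1.27 CPM in Hs578T CD44 WT and 0.0802, 0.432 and 0.256 CPM in CD44 KO. In MDA-MB-231 it had 14.1, 16.4 and 18.7 CPM in CD44 WT and 3.13, 3.71 and 3.46 CPM in CD44 KO. Every CD44 KO library was below every CD44 WT library of its line. The log2 fold change was -2.58 (SE 0.397, adjusted p = 0.000363) in Hs578T and -2.24 (SE 0.210, adjusted p = 7.82e-06) in MDA-MB-231. Without CD44 KO replicate 2 the Hs578T value was -3.25, and still called. The difference between lines was -0.34 (SE 0.490, adjusted p = 0.709), which does not show that the changes were equal.

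The other SLITRK genes were counted almost only in MDA-MB-231. There SLITRK2 had 2.40, 3.89 and 3.74 CPM in CD44 WT and 1.61, 1.17 and 1.38 CPM in CD44 KO, a log2 fold change of -1.29 (SE 0.292) that missed the threshold (adjusted p = 0.0102). SLITRK5 had 4.54, 4.95 and 4.81 CPM in CD44 WT and 9.06, 7.84 and 7.21 CPM in CD44 KO, a log2 fold change of 0.75 (SE 0.196, adjusted p = 0.0327). Neither overlapped between the groups. SLITRK1 and SLITRK5 lie in 1 cluster on chromosome 13, with SLITRK6, and their fitted changes had opposite signs. SLITRK4 was at 4.40 ± 0.271 CPM in CD44 WT and 4.57 ± 0.795 CPM in CD44 KO. The summed SLITRK level in MDA-MB-231 was 3.72 to 4.67 RPKM in CD44 WT and 1.66 to 1.80 RPKM in CD44 KO, and SLITRK1 went from 74.4% to 38.5% of it.

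**Figure D3:**
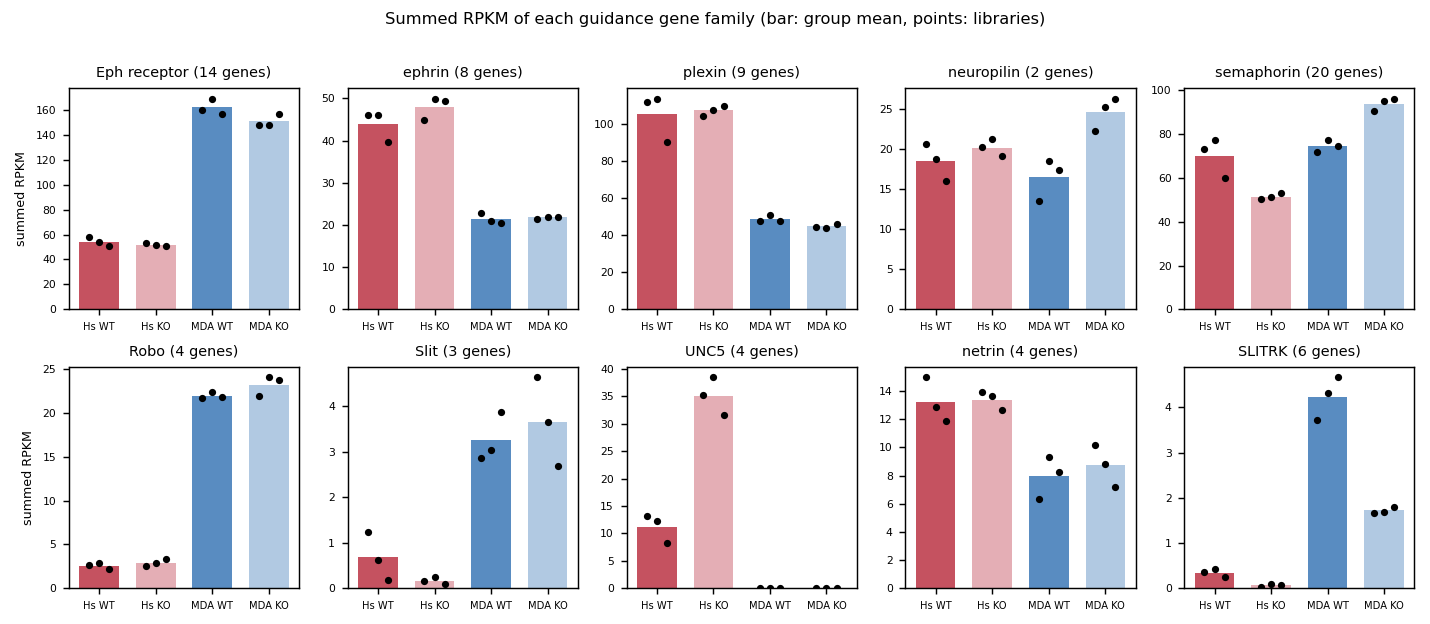
Summed RPKM of all members of each family (y axis, from 0, a scale of its own in each panel) in CD44 WT and CD44 KO of both lines, with bars for group means and points for the 3 libraries. The UNC5 sum is 11.2 RPKM in Hs578T CD44 WT and 35.2 RPKM in CD44 KO, and the SLITRK points of MDA-MB-231 CD44 KO lie below those of CD44 WT.

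In Hs578T, 3 of 57 guidance genes had an adjusted p between 0.01 and 0.05, against 1064 of all 15836 genes tested. They were SEMA5A, EPHB6 (log2 fold change -1.04, adjusted p = 0.0377) and EPHA5 (2.44, adjusted p = 0.0488, from 3 CD44 WT and 19 CD44 KO counts). In MDA-MB-231 there were 5 of 57, against 787 of all 15836 genes, namely SLITRK2, SEMA3E, EPHB3, EPHA5 and SLITRK5. EPHA5 had a positive log2 fold change there as well (1.48, SE 0.408, adjusted p = 0.0301). EPHB6 had 0 counts in all MDA-MB-231 libraries.

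Calls in a single line were next set against a test of the difference between lines. That difference was called for 7 of 57 guidance genes (12.3%), against 4.12% of all genes tested. EPHA4, EPHB2, SEMA6B and NTN1 had the lower change in Hs578T (4 genes, with 1.79% of all genes called in that direction), and EFNB1, SEMA3G and SLIT2 had the higher one (3 genes, against 2.33%). For the other 13 of the 20 genes called in either line, a difference between lines was not called at this depth, which does not show that both lines changed alike. Among them SEMA7A had a difference of -0.53 (SE 0.133, adjusted p = 0.0197) and ROBO1 one of 1.36 (SE 0.399, adjusted p = 0.0410). Of the 57 genes tested, 37 were called in neither line.

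Levels were also compared between the CD44 WT cells of the lines, with the same libraries as above. Between CD44 WT cells, 50 of 57 guidance genes (87.7%) differed, against 61.5% of all genes tested, with 28 higher in Hs578T (32.2% of all genes) and 22 lower there than in MDA-MB-231 (29.4% of all genes). Of the 57 genes, 13 passed the filter on low counts through MDA-MB-231 libraries alone and 5 through Hs578T libraries alone. All 18 were called higher in that line, a direction the filter favours, so the count over the 57 genes shows nothing particular to them. Of the 39 genes that passed in each line, 23 were called higher in Hs578T and 9 lower. The matching shares over all genes that passed in each line were not computed, so these counts cannot show a skew particular to guidance genes. All 9 plexins differed, of which PLXNC1 was the one higher in MDA-MB-231 and 8 were higher in Hs578T, and PLXNC1 and PLXNA4 passed the filter through their higher line alone. ROBO1, ROBO3 and SLITRK1 passed in each line and were higher in MDA-MB-231. ROBO2, ROBO4, SLITRK2, SLITRK4 and SLITRK5 passed through MDA-MB-231 alone. ROBO4, best known from endothelial cells, was at 11.6 ± 0.254 RPKM in MDA-MB-231 and 0.00780 ± 0.0135 RPKM in Hs578T. UNC5B had the opposite order, with 10.9 ± 2.50 RPKM in Hs578T and 0.0323 ± 0.0300 RPKM in MDA-MB-231.

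Several ligands and receptors, such as SEMA3A, ROBO4 and UNC5B, were counted in 1 line only at more than a trace. NTN1 and EFNB1 passed the filter in both lines at unlike levels. In CD44 WT cells 34 of the 74 genes were at 1 RPKM or more in Hs578T and 32 in MDA-MB-231, and the same numbers of genes reached that level in CD44 KO. NTN1 was at 3.42 ± 0.256 RPKM in Hs578T CD44 WT and 0.178 ± 0.0456 RPKM in MDA-MB-231 CD44 WT, and in CD44 KO at 2.20 ± 0.210 and 0.551 ± 0.115 RPKM. EFNB1 was at 19.6 ± 0.928 RPKM in Hs578T CD44 WT and 2.25 ± 0.183 RPKM in MDA-MB-231 CD44 WT, and in CD44 KO at 26.3 ± 1.34 and 1.46 ± 0.204 RPKM. For NTN1 and EFNB1 the higher line was the same in both genotypes. The plot of CD44 WT levels shows the spread of the families around the line of equal level.

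**Figure D4:**
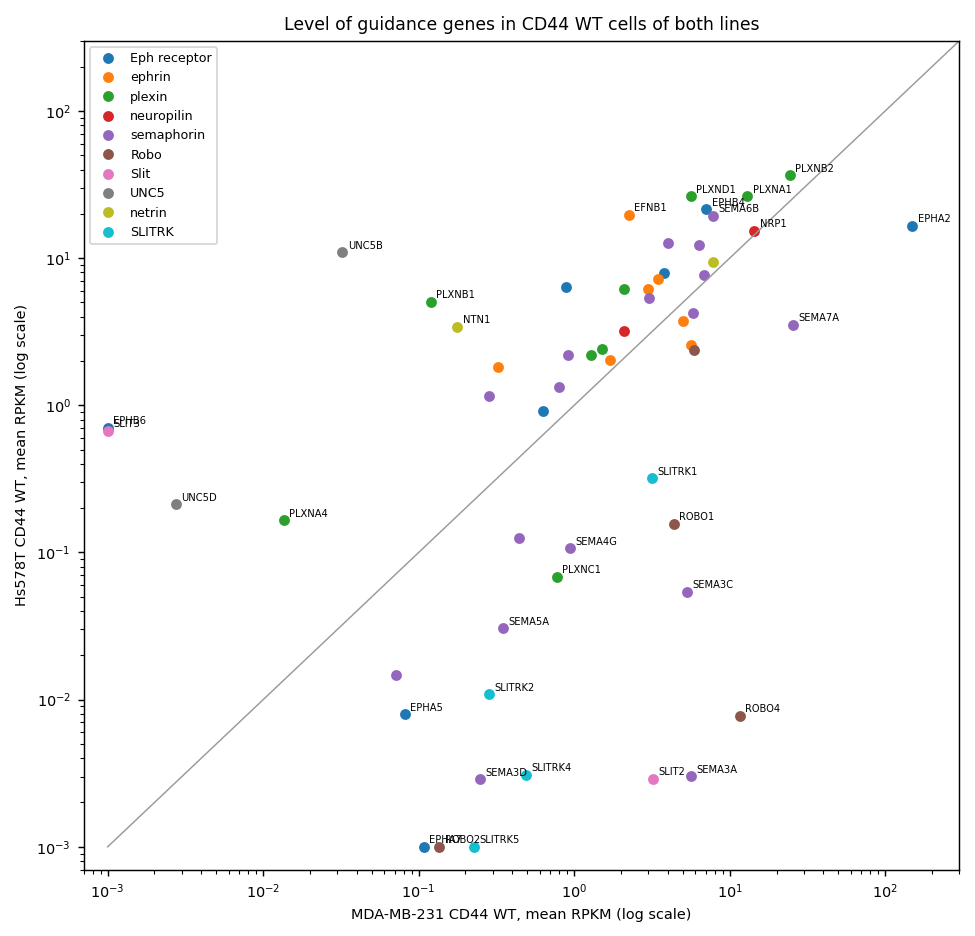
Mean RPKM of the guidance genes tested in CD44 WT cells of MDA-MB-231 (x axis) and Hs578T (y axis), both on log scales, coloured by family, with a line of equal level and genes below 0.001 RPKM drawn at 0.001. ROBO4 and SLIT2 lie far below the line, UNC5B far above it, and EPHA2 has the highest RPKM at 149 in MDA-MB-231.

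Partners of these receptors were also read from lists of pathway genes. Of 8 tested genes of the netrin and Slit systems outside the families above, NEO1, which encodes the netrin receptor neogenin, rose in Hs578T (log2 fold change 0.70, SE 0.153, adjusted p = 0.00567), and NTNG1, a membrane-anchored netrin relative, went from 1.28 CPM to 0 counts in MDA-MB-231 (adjusted p = 0.00282). DCC had 3 counts or fewer in every group. Of the 3 LAR-type phosphatases that SLITRK proteins bind, PTPRD rose in Hs578T from 6 to 146 counts (log2 fold change 4.46, SE 0.601, adjusted p = 0.000205) and PTPRS rose in MDA-MB-231 (0.49, SE 0.107, adjusted p = 0.00878). NTNG1 passed the filter on low counts only through MDA-MB-231 CD44 WT libraries, and PTPRD only through Hs578T CD44 KO libraries. Passing in this way favours the direction of change seen. The 6 Hs578T CD44 WT counts of PTPRD were all in replicate 1.

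Among 44 tested signalling partners of Eph, plexin and Robo receptors, mostly cytoplasmic proteins with the receptor kinases MET and ERBB2, 7 were called in Hs578T (15.9%, against 7.51% of all genes), 2 lower (3.86% of all genes) and 5 higher (3.64%). In MDA-MB-231, 2 were called, both lower (4.55% of the partners, against 4.62% of all genes), a share at the background. VAV3, an exchange factor that acts below Eph receptors, rose in Hs578T from 3.60 to 28.5 CPM (log2 fold change 2.97, SE 0.188, adjusted p = 1.77e-06) and had 0 counts in MDA-MB-231. FYN, RGS3, DPYSL2 and MET rose in Hs578T by 0.38 to 0.65 on the log2 scale, while GRB10 and ARHGEF11 fell by 0.66 and 0.39. In MDA-MB-231 PICK1 fell by 1.77 and TIAM1 by 0.65. Of 9 tested sheddases, ADAM17 fell in MDA-MB-231 by 0.57 (adjusted p = 0.00547).

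Of the 14 calls in Hs578T, 6 were kept without each of the 12 libraries, and the others were lost without 1 or more of them. CD44 WT replicate 3 was the CD44 WT library nearest to CD44 KO for 7 of the 9 genes that fell in Hs578T, and without it 12 guidance genes were called, 9 lower and 3 higher, 11 of them among the 14. Without CD44 WT replicate 1, CD44 WT replicate 2 or CD44 KO replicate 2 the count was 7 each, and it was 8 without replicate 1 or replicate 3 of CD44 KO. Matching shares over all genes are not given for these fits. EPHA4, EPHB3, SEMA6B, SLIT3, UNC5B and SLITRK1 in Hs578T, and EPHB2, SEMA3D, SEMA5A, SEMA7A, NTN1 and SLITRK1 in MDA-MB-231, were called without each of the 12 libraries.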

How the data were processed

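Sorted cells of both lines and both genotypes gave 12 RNA-seq libraries. Per the study's methods and processing notes, the authors aligned reads to GRCh38 with HISAT2 (version 2.1.0), counted fragments by strand with featureCounts (version 1.6.2) and left out those assigned to several places or genes. The deposited table holds raw counts by gene, in whole numbers, beside exonic lengths. Groups followed the labels.

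Genes of 300 nt of exon or longer that passed 1 CPM, before TMM scaling, in 2 or more libraries were tested with R 4.3.3 and edgeR 4.0.16. TMM factors and a quasi-likelihood fit of 4 group means were used (legacy fit, prior count 0.125). Contrasts were CD44 KO minus CD44 WT per line, their difference and Hs578T minus MDA-MB-231 in CD44 WT, called at 0.01 or less after Benjamini-Hochberg adjustment. Standard errors were derived from the log2 fold change and its F value. RPKM is TMM-scaled CPM per kilobase of exon. A group total of up to 3 counts was treated as the floor, and exact counting intervals cover counting error only. Depth, 10257586 counts at the lowest, limits the weakly expressed genes. Members and pathway and marker lists were chosen with earlier results of these data known. Every called member was named, with the 3 members of highest RPKM per family group, the members nearest above the threshold and the called genes of the pathway lists, of which 1 list is not reported here. Alternatives were other scalings, filters, fits, DESeq2 1.42.0, other thresholds, replicate blocks and each library left out.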

Additional observations from a re-analysis of the deposited data

Results flagged for a closer look

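For 7 guidance genes Hs578T and MDA-MB-231 differed in their response to CD44 KO, as the interaction in the fit showed (edgeR, quasi-likelihood, adjusted by Benjamini-Hochberg over all genes). Values are log2 fold changes in Hs578T minus those in MDA-MB-231. The Eph receptor EPHA4 differed by -2.95 (adjusted p = 0.00171), lower in 3 of 3 CD44 KO libraries of Hs578T and overlapping in MDA-MB-231. EPHB2 differed by -0.88 (adjusted p = 0.00149), with the rise in MDA-MB-231. The ephrin EFNB1 differed by 1.06 (adjusted p = 0.000842), higher in 3 of 3 CD44 KO libraries of Hs578T and lower in 3 of 3 of MDA-MB-231. SEMA3G differed by 1.74 (adjusted p = 0.00292), with the fall in MDA-MB-231. SEMA6B differed by -1.70 (adjusted p = 0.000459), lower in 3 of 3 CD44 KO libraries of Hs578T and higher in 3 of 3 of MDA-MB-231. SLIT2 differed by 5.04 (adjusted p = 0.00440), a value that rests on 1 count in Hs578T CD44 WT and so depends on the prior count. NTN1 differed by -2.27 (adjusted p = 0.000103), lower in 3 of 3 CD44 KO libraries of Hs578T and higher in 3 of 3 of MDA-MB-231. The groups of 3 libraries were too small to look for single outlying libraries.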

How the results depend on the processing

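Alternatives were rerun by gene for members with adjusted p up to 0.05 in a line, or up to 0.01 for the difference between lines. None of these values changed sign. By gene and setting, 768 kept their side of the threshold, 80 fell short of it and 17 passed it. Sign changes of the other named values were not examined. Without a filter on low counts, 15 guidance genes were called in MDA-MB-231 and 11 for the difference between lines, with 72 members tested in place of 57. In MDA-MB-231, 14 were called at a threshold of 0.05. Of all 15836 genes, 731 were called at 0.01 and 787 more lay between 0.01 and 0.05. With a log2 fold change of 1 or more in either direction, 5 guidance genes were called at 0.01. For the other settings of this section the matching shares over all genes are not given, so those counts show only how the calls varied. Leaving out each library in turn gave 7 to 14 calls in Hs578T, 6 to 12 in MDA-MB-231, 6 to 9 for the difference between lines and 45 to 50 between the CD44 WT lines. A library left out leaves fewer samples, with a pair in its group. The spread is then estimated from all 4 groups together, as in the main fit. In Hs578T the calls of ROBO1, NTN1, EFNA1, EFNB1, SEMA3B, SEMA3F, PLXNA4 and SLIT2 were kept in 3, 4, 4, 5, 7, 8, 8 and 11 of the 12 such fits, with adjusted p up to 0.0596 (ROBO1 without CD44 KO replicate 2) and SLIT2 lost without CD44 WT replicate 1 (0.0128). In MDA-MB-231 those of EFNB1, NRP1 and SEMA3G were kept in 1, 10 and 11 fits, each lost without CD44 KO replicate 2 (0.0590, 0.0116 and 0.0105), and in a fit of each line alone (0.0824, 0.0227 and 0.0160). The difference between lines was lost for SEMA3G without Hs578T CD44 KO replicate 3, MDA-MB-231 CD44 WT replicate 3 or MDA-MB-231 CD44 KO replicate 2 (up to 0.0153), and for SLIT2 without Hs578T CD44 WT replicate 1 or 2 or CD44 KO replicate 2 (up to 0.0264). A fit of each line alone could not be run for the other 2 comparisons. With the title numbers as a replicate block, 10, 8, 7 and 48 guidance genes were called for these 4 results. With blocks of consecutive label numbers the counts were 13, 9, 7 and 50. Among the title numbers the unnumbered library was given 2, the only number left in its group. The title numbers lost EFNA1 (0.0131), EFNB1 (0.0118), ROBO1 (0.0122) and NTN1 (0.0151) in Hs578T and EFNB1 in MDA-MB-231 (0.0119), and the label numbers NTN1 in Hs578T (0.0113) and EFNB1 in MDA-MB-231 (0.0109). The numbers do not pair the samples by the labels: of 18 pairs with the same title number, 2 correlated above 0.1, and of 18 with consecutive label numbers 6 did. With 5 and 10 of 12 libraries correlating best with their own number, the second is a hint from the data, not from the design. Genes with 3 counts or fewer in both groups could not show a change at this depth.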
